A study of Drosophila melanogaster with 6 samples.

Results

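Crosslinked and non-crosslinked input libraries of an eCLIP study of Asterix (Gtsf1) were compared to describe the RNA of the cell lysate before any pull-down. They are 3 of the 6 libraries of the series, chosen by their titles: 2 input libraries from cells irradiated with ultraviolet light at 254 nm and 400 mJ, and 1 input library from cells that were not irradiated. All libraries came from OSS cells, a Drosophila line of ovarian somatic sheath cells, and every culture, the non-irradiated one included, had been transfected with a pAWG plasmid (act5c promoter) encoding Asterix tagged at its C terminus with TEV-Strep. The cells were lysed with detergent and sonication, the lysate was treated with DNase and RNase I, and debris was spun out. How the input libraries were made from the lysate is not given in the sources used here. The crosslinked inputs are 2 samples with no statement that they came from separate cultures, so p-values measure only the spread between them, which may be technical. The non-crosslinked input is 1 library, so irradiation cannot be told apart from any other difference between that library and the other two.

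Ultraviolet light at this wavelength joins RNA covalently to proteins that touch it, which is why eCLIP uses it. The input of such an experiment is the background against which a pull-down is read, and it holds the abundant structured RNAs of the cell. These are the ribosomal RNAs, the small nuclear RNAs (snRNAs) of the spliceosomes, the small nucleolar RNAs (snoRNAs) that guide modification of ribosomal RNA, the related scaRNAs that guide modification of snRNAs, and the tRNAs. C/D snoRNAs guide methylation of ribose, and H/ACA snoRNAs guide the conversion of uridine to pseudouridine. In flies most snoRNAs are cut out of introns of other genes, many of them genes of ribosomal proteins or noncoding host genes named Uhg.

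The crosslinked inputs held 12391586 and 13658478 annotated reads, and the non-crosslinked input 12499302. Reads outside any annotation made up 2.15% and 2.21% of all reads in the crosslinked inputs and 3.23% in the non-crosslinked input. Levels are given in CPM, estimated reads scaled to 1000000 annotated reads, and 3 reads correspond to 0.24 and 0.22 CPM in the crosslinked inputs and 0.24 CPM in the non-crosslinked input. PCR duplicates are not known to have been removed, so the confidence intervals and the limit of 3 reads cover counting error only. Over the 6605 entries with at least 10 reads in each input, crosslinked input 1 differed from crosslinked input 2 by a median of 0.28 on the log2 scale, and 2.12% of entries differed by more than 2-fold. Against the non-crosslinked input the median difference was 0.42 for crosslinked input 1 and 0.52 for crosslinked input 2, and 14.7% and 15.7% of entries passed 2-fold. An entry is the sum of the features of 1 gene, transposon family, tRNA anticodon or structural RNA within an annotation class. A difference between the inputs was called at an adjusted p below 0.05 in edgeR's quasi-likelihood test, in which the single non-crosslinked library is assumed to vary as the crosslinked pair does.

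Of 9471 entries tested, 544 (5.74%) were higher and 425 (4.49%) lower in the crosslinked inputs, or 10.2% in either direction. With the further condition that both crosslinked inputs lie at least 2-fold on the same side, 447 entries (4.72%) were higher and 215 (2.27%) lower. Over the 16764 single features tested, 1150 (6.86%) were higher and 829 (4.95%) lower, 11.8% together. The median entry had a log2 fold change of 0.23 when levels were scaled by annotated reads, 0.10 when ribosomal reads were left out of the total and 0.02 with TMM factors. The balance of calls moved with it: higher entries made up 56.1% of calls with annotated reads, 42.0% without ribosomal reads and 38.7% with TMM or DESeq2 size factors. Without crosslinked input 1 they were 80% of calls, and without crosslinked input 2 they were 47.4%. When 1 crosslinked input was left out, the fit held the other 5 libraries and its spread came from the crosslinked pull-down pair, so such counts differ from the others in both the library left out and the source of the spread. Directions below are therefore those of classes and entries relative to the rest of the same libraries.

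Ribosomal RNA took 85.8% and 85.6% of annotated reads in the crosslinked inputs and 87.0% in the non-crosslinked input. Among the other classes, snoRNAs took 4.66% and 4.15% in the crosslinked inputs, against 3.24% in the non-crosslinked input. The share of snRNAs was 1.67% and 1.47% in the crosslinked inputs and 0.854% in the non-crosslinked input, a ratio of 1.84 with the mean of the crosslinked pair on top. Cytoplasmic tRNAs moved the other way, at 0.191% and 0.179% in the crosslinked inputs against 0.521% in the non-crosslinked input, so that the non-crosslinked share was 2.82 times the crosslinked mean. The class labelled structRNA (7SL, RNase P and RNase MRP RNA) took 0.418% and 0.430% in the crosslinked inputs and 0.783% in the non-crosslinked input. Exons took 3.71% and 4.27% in the crosslinked inputs against 3.13% in the non-crosslinked input, and introns 1.60% and 1.68% against 2.41%. In each of these classes the non-crosslinked library lay outside the pair. For exons the distance to the nearer crosslinked input was 1.01 times the distance between the crosslinked inputs. For tRNAs it was 28.3 times and for structRNA 29.6 times. Shares of LTR and LINE transposons, features labelled mRNA and lncRNAs lay between the crosslinked inputs in the non-crosslinked library. Without ribosomal reads in the total, the non-crosslinked library lay above both crosslinked inputs for LINE elements (0.652%, against 0.579% and 0.595%). The same held for features labelled mRNA (2.16% and 2.55% in the crosslinked inputs against 2.77%) and for lncRNAs (0.477% and 0.526% against 0.535%). The 95% Wilson interval of the non-crosslinked tRNA share was 0.517% to 0.525%, so counting error was small beside these differences. No exact permutation test of 2 libraries against 1 can give a p below 0.333, so shares were not tested.

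**Figure D1:**
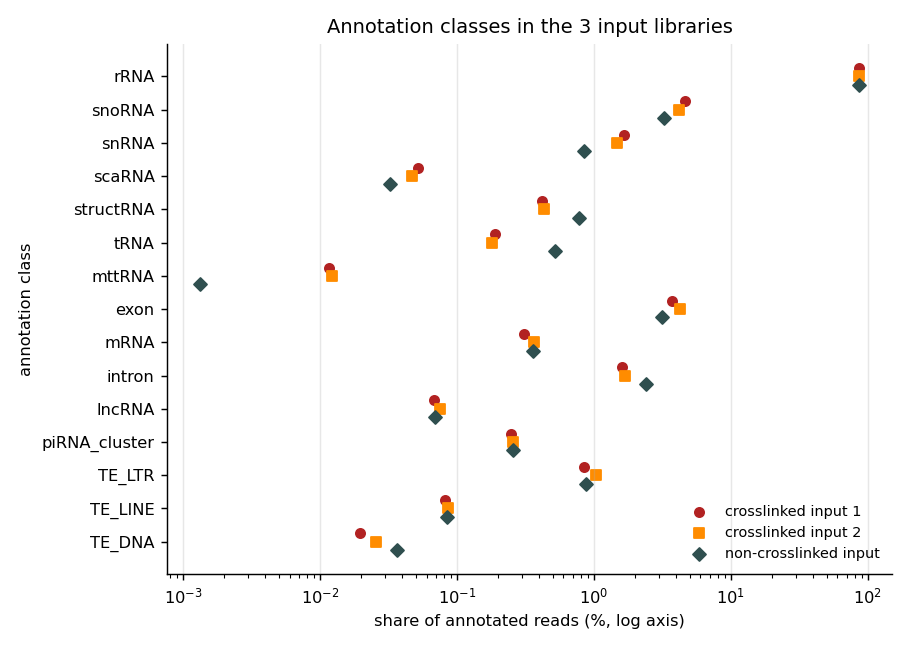
Share of annotated reads by annotation class (percent, log axis) in crosslinked input 1, crosslinked input 2 and the non-crosslinked input, 1 point a library. The crosslinked points lie right of the non-crosslinked one for snoRNA, snRNA, scaRNA, mitochondrial tRNA (mttRNA) and exon, and left of it for structRNA, tRNA, intron and TE_DNA.

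**Figure D2:**
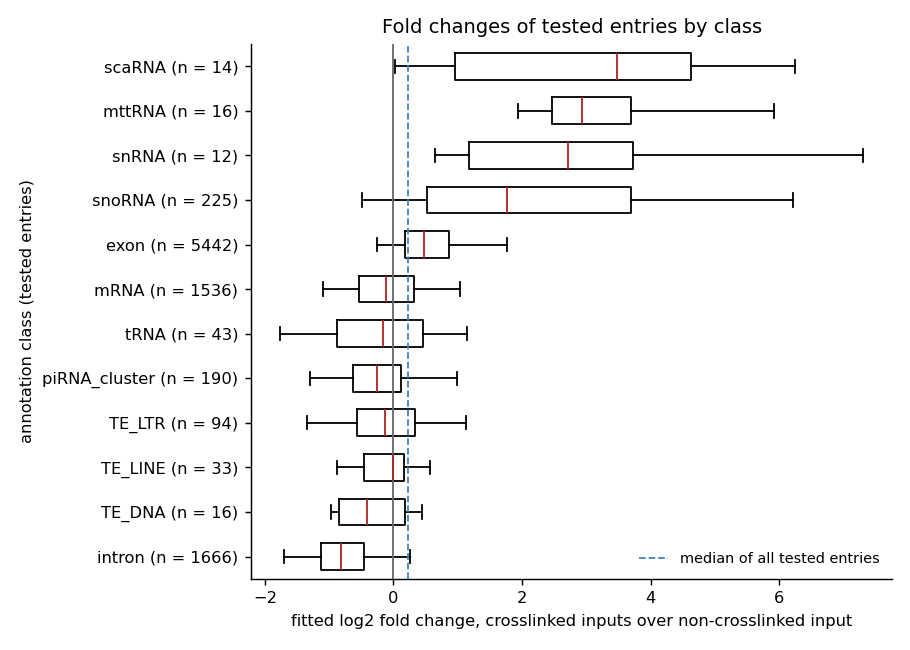
Fitted log2 fold changes of tested entries, crosslinked inputs over non-crosslinked input, by class. Boxes span the quartiles, red lines are medians, whiskers reach the 5th and 95th percentiles, and the dashed line is the median of all tested entries (0.23). The snoRNA, snRNA, scaRNA and mitochondrial tRNA boxes lie above it, and the intron box lies below 0.

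The small nuclear RNAs were higher as a group. Of 12 snRNA entries tested, 11 (91.7%) were higher and 1 (8.33%) lower in the crosslinked inputs, against 5.74% and 4.49% over all entries. The median log2 fold change of these 12 was 2.71. With TMM factors 9 were higher and none lower. U1, which recognises the 5′ splice site, was measured at 4815 and 4036 CPM in the crosslinked inputs and 716 CPM in the non-crosslinked input. Its fold was 6.18 (log2 2.63, SE 0.15, adjusted p = 9.2e-66). U4, the partner of U6 in the tri-snRNP, stood at 1943 and 1380 CPM in the crosslinked inputs, against 239 CPM in the non-crosslinked input, 6.95-fold higher (log2 2.80, SE 0.18, adjusted p = 2.2e-49). U6, which forms part of the catalytic core, had 1583 and 1106 CPM in the crosslinked inputs and 584 CPM in the non-crosslinked input, a fold of 2.30. U2, which pairs with the branch point, had 5506 and 5436 CPM in the crosslinked inputs and 3512 CPM in the non-crosslinked input, 1.56-fold higher. U5, which holds the exons at the splice site, was the exception, with 2123 and 2103 CPM in the crosslinked inputs against 3395 CPM in the non-crosslinked input (log2 −0.68, SE 0.13, adjusted p = 1.1e-05). The crosslinked and non-crosslinked values did not overlap for any of these RNAs, which was also so for most entries tested. Of all 9471, 4878 had both crosslinked inputs above the non-crosslinked input and 2820 had both below it. The calls for U2, U5 and U6 were lost with TMM factors, at adjusted p = 0.70, 0.25 and 0.099, while the log2 fold changes were 0.44, −0.88 and 1.02. U2 and U5 also lost their calls when either crosslinked input was left out, at log2 fold changes of 0.63 and 0.65 for U2 and −0.69 and −0.68 for U5.

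The snRNAs of the minor spliceosome rose as well. U11, which recognises the 5′ splice site of minor introns, had 175.8 and 133.1 CPM in the crosslinked inputs and 8.24 CPM in the non-crosslinked input, a fold of 18.7 (log2 4.23, SE 0.31, adjusted p = 7.1e-40). U12, which pairs with their branch point, had 63.6 and 68.9 CPM in the crosslinked inputs against 20 CPM in the non-crosslinked input. U4atac gave 48 and 55 reads in the crosslinked inputs and 6 in the non-crosslinked input. U6atac gave 18 and 22 reads in the crosslinked inputs and 0 in the non-crosslinked input, at least 6.38-fold higher against 3 reads. The folds were 3.31 for U12 and 8.23 for U4atac.

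Outside splicing, U7, which directs the cutting of histone pre-mRNA, showed the largest fold of the snRNAs with reads in every library. It was counted 2011 and 2087 times in the crosslinked inputs and 11 times in the non-crosslinked input, 179-fold higher in CPM (log2 7.47, SE 0.41, adjusted p = 5.9e-69). 7SK, which holds the elongation factor P-TEFb inactive, had 233.2 and 206.0 CPM in the crosslinked inputs and 18.6 CPM in the non-crosslinked input, 11.8-fold higher. The RNAs of the structRNA class did not share a direction. 7SL, the RNA of the signal recognition particle, was at 2256 and 2349 CPM in the crosslinked inputs and 4835 CPM in the non-crosslinked input, lower by 1.07 on the log2 scale (SE 0.13, adjusted p = 2.2e-15). RNase MRP RNA, which takes part in cutting pre-rRNA, had 1572 and 1610 CPM in the crosslinked inputs against 2767 CPM in the non-crosslinked input. RNase P RNA, which trims the 5′ ends of tRNA precursors, went the other way, with 356 and 344 CPM in the crosslinked inputs and 229 CPM in the non-crosslinked input. With TMM factors none of these 3 RNAs passed the test (adjusted p = 0.096 for 7SL, 0.15 for RNase MRP RNA and 0.41 for RNase P RNA). The log2 fold changes of 7SL and RNase MRP RNA were nonetheless larger in size than with annotated reads, that of 7SL at −1.27. RNase P RNA stood at 0.41 with TMM factors and 0.61 with annotated reads. RNase MRP RNA and RNase P RNA were also not called when either crosslinked input was left out, at log2 fold changes of −0.78 and −0.82 for RNase MRP RNA and 0.59 and 0.63 for RNase P RNA. RNase P RNA was also not called when ribosomal reads were left out of the total (adjusted p = 0.10).

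**Figure D3:**
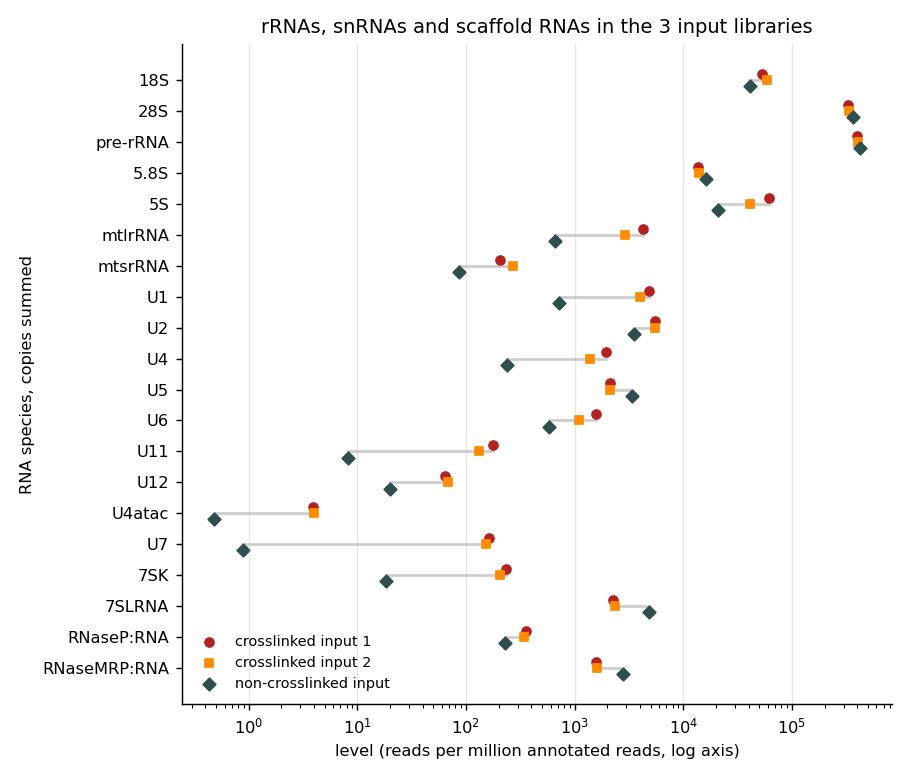
Levels of rRNA species, snRNAs and structRNA entries (scaffold RNAs in the title; CPM, log axis) in crosslinked input 1, crosslinked input 2 and the non-crosslinked input, near-identical gene copies summed. U7, U11, 7SK, U4atac, U4, mtlrRNA and U1 lie well right of their non-crosslinked points, whereas U5, 7SLRNA and RNaseMRP:RNA lie left of theirs.

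Within the ribosomal class the species moved apart. The nuclear 28S rRNA stood at 330254 and 335834 CPM in the crosslinked inputs, against 366516 CPM in the non-crosslinked input. An entry labelled pre-rRNA had 394456 and 402836 CPM in the crosslinked inputs, against 424482 CPM, and was not called. Reads that match several features of a class were split between them, so this entry may hold reads of the mature rRNAs. It is therefore not read as the level of the precursor, and how reads were divided was not tested. The 18S rRNA of the small subunit had 53571 and 59078 CPM in the crosslinked inputs and 40735 CPM in the non-crosslinked input, a fold of 1.38. The 5S rRNA, made by RNA polymerase III, was the most changed cytoplasmic species with high counts, at 61685 and 41265 CPM in the crosslinked inputs against 20947 CPM in the non-crosslinked input (log2 1.30, SE 0.07, adjusted p = 3.2e-63). The crosslinked inputs themselves differed for 5S, and with TMM factors its call was lost at a log2 fold change of 1.12 (adjusted p = 0.61), as were those of 18S at 0.26 and of 28S at −0.34 (adjusted p = 0.93 and 0.94). The calls for 18S and 28S were also lost when either crosslinked input was left out, at log2 fold changes of 0.54 and 0.40 for 18S and −0.13 and −0.15 for 28S. The 2 mitochondrial rRNAs rose. The large one (mtlrRNA) had 4221 and 2920 CPM in the crosslinked inputs and 662 CPM in the non-crosslinked input, and the small one (mtsrRNA) had 203.9 and 269.1 CPM in the crosslinked inputs and 85.9 CPM in the non-crosslinked input. Pseudogene copies of 5S rRNA were among the largest rises in the data. 5SrRNA-Psi:CR33416 gave 472 and 277 reads in the crosslinked inputs and 3 in the non-crosslinked input, a pooled ratio of 120 with an exact 95% counting interval of 40.9 to 583. Its copy 5SrRNA-Psi:CR33356 gave 474 and 274 reads in the crosslinked inputs and 4 in the non-crosslinked input, and a read that fits both copies may have been divided between them.

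Mitochondrial transcripts split by kind. Of 16 mitochondrial tRNAs tested, 12 (75%) were higher and none lower, against 5.74% and 4.49% over all entries. All 16 had both crosslinked inputs above the non-crosslinked input, against 4878 of 9471 over all entries. Their median log2 fold change was 2.94, or 2.59 with the tRNAs that had no read in the non-crosslinked input set at the bound of 3 reads. Mitochondrial tRNA-Val-TAC was counted 576 and 616 times in the crosslinked inputs and 21 times in the non-crosslinked input, 27.3-fold higher. Mitochondrial tRNA-Met-CAT had 134 and 165 reads in the crosslinked inputs and 14 in the non-crosslinked input, and tRNA-Asn-GTT had 135 and 194 against 34. The 13 mRNAs made in mitochondria behaved otherwise, with none higher, 3 (23.1%) lower and a median log2 fold change of −0.72. The absence of rises among so few is near the overall share of 5.74%. For 10 of the 13 both crosslinked inputs lay below the non-crosslinked input, against 2820 of 9471 over all entries. mt_ND1, a subunit of respiratory complex I, had 21 and 26 reads in the crosslinked inputs and 84 in the non-crosslinked input (log2 −1.89, SE 0.37, adjusted p = 1.2e-05). mt_Cyt-b, of complex III, had 8.31 and 14.1 CPM in the crosslinked inputs and 27 CPM in the non-crosslinked input (log2 −1.26, SE 0.30). mt_CoI, the catalytic subunit of cytochrome oxidase, was not called, at 21.4 and 25.8 CPM in the crosslinked inputs and 35.5 CPM in the non-crosslinked input.

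Cytoplasmic tRNAs were lower as a class mostly through 1 anticodon. tRNA-Asp-GTC was counted 13456 and 13561 times in the crosslinked inputs and 47500 times in the non-crosslinked input, lower by 1.87 on the log2 scale (SE 0.14, adjusted p = 4.2e-39). It made up 56.9% and 55.4% of tRNA reads in the crosslinked inputs and 72.9% in the non-crosslinked input. Without it the class stood at 823 and 799 CPM in the crosslinked inputs and 1412 CPM in the non-crosslinked input, so the non-crosslinked level was still 1.74 times the crosslinked mean. The next most abundant, tRNA-Glu-CTC, had 506 and 452 CPM in the crosslinked inputs and 891 CPM in the non-crosslinked input (log2 −0.89, SE 0.17, adjusted p = 8.8e-06). Of the 43 anticodons tested, 9 (20.9%) were lower and 3 (6.98%) higher, against 4.49% and 5.74% over all entries. Their median log2 fold change was −0.17. The largest fall was that of tRNA-Ile-AAT, with 13 and 16 reads in the crosslinked inputs and 88 in the non-crosslinked input (log2 −2.65, SE 0.39). All 3 valine anticodons were lower, led by tRNA-Val-CAC with 57 and 55 reads in the crosslinked inputs against 205 in the non-crosslinked input. tRNA-Leu-AAG, with 5.72 and 6.18 CPM in the crosslinked inputs and 20.2 CPM in the non-crosslinked input, and tRNA-Ala-TGC, with 24.1 and 40.0 CPM against 106.6 CPM, fell too. The 3 that rose were chosen for mention after their values were seen. tRNA-Ser-AGA had 70.6 and 118 estimated reads in the crosslinked inputs and 18.6 in the non-crosslinked input, tRNA-Thr-TGT 60.6 and 79.3 against 22, and the initiator tRNA-iMet-CAT 14 and 43 against 2. Anticodons of 1 amino acid did not all move together, as tRNA-Ala-AGC, at 2.99 and 6.22 CPM in the crosslinked inputs and 5.6 CPM in the non-crosslinked input, was not called.

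Most snoRNAs were higher, and the size of the difference varied by family. Of 225 tested, 153 (68.0%) were higher and 10 (4.44%) lower, with a median log2 fold change of 1.76, against 5.74% and 4.49% over all entries. Families were read from the names after the values had been seen, so the split is a description without a test. The 90 entries with names of C/D snoRNAs held 82 higher and none lower, with a median log2 fold change of 3.94, or 3.36 with entries without reads in the non-crosslinked input set at the bound. The 107 with names of H/ACA snoRNAs held 51 higher and 9 lower, with a median of 0.66. Summed, the C/D entries stood at 7684 and 5986 CPM in the crosslinked inputs and 1291 CPM in the non-crosslinked input, a fold of 5.29. The summed H/ACA entries stood at 34281 and 31292 CPM in the crosslinked inputs and 26896 CPM in the non-crosslinked input, a fold of 1.22. Most C/D reads came from U3, which binds pre-rRNA and is needed to make the small ribosomal subunit, at 6319 and 4339 CPM in the crosslinked inputs and 1101 CPM in the non-crosslinked input. Without U3, the C/D sum was 1365 and 1647 CPM in the crosslinked inputs against 190 CPM in the non-crosslinked input, 7.93-fold higher.

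The families also differ in length and level, so the difference between them cannot be told apart from those properties. The C/D entries had a median RefSeq gene length of 78.0 nt and a median non-crosslinked level of 0.80 CPM, and the H/ACA entries 140 nt and 107 CPM. Over all 225 snoRNAs, Spearman's rho with the log2 fold change was −0.61 for length and −0.71 for mean level. Within C/D entries these were −0.40 and −0.19, and within H/ACA entries 0.29 and −0.23. C/D entries below 80 nt had a median log2 fold change of 4.65 (n = 50), those from 80 to 100 nt 3.07 (n = 32), and the 6 from 100 to 140 nt 2.67. In the bin from 100 to 140 nt, which both families share, the 46 H/ACA entries had a median of 0.39.

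Single C/D snoRNAs gave some of the largest folds of the comparison. Me18S-G1358a was counted 61 and 63 times in the crosslinked inputs and not at all in the non-crosslinked input, at least 19.9-fold higher when 3 reads are taken as the limit of that library. U14:30Eb, a copy of U14, which takes part in 18S processing, had 223 and 256 reads in the crosslinked inputs and 2 in the non-crosslinked input, a pooled ratio of 115 with an exact 95% counting interval of 31.6 to 952. Me28S-A1322, named for a methylation site in 28S rRNA, had 541 and 871 reads in the crosslinked inputs and 13 in the non-crosslinked input (log2 5.68, SE 0.44, adjusted p = 3.7e-35). Or-CD10 had 462 and 511 reads in the crosslinked inputs against 7, and nop5-x16-a, whose name gives no family, 538 and 477 against 6. Among abundant H/ACA snoRNAs both directions occurred. Or-aca4 had 2649 and 2144 CPM in the crosslinked inputs and 1283 CPM in the non-crosslinked input, but Psi28S-2622 had 2490 and 2466 CPM against 3202 CPM, and neither kept its call with TMM factors (adjusted p = 0.37 and 0.52). Without crosslinked input 1 both lost their calls (log2 0.74 and −0.38), as Psi28S-2622 did without crosslinked input 2 (log2 −0.36). Copies of Psi18S-1377, such as Psi18S-1377a with 921 and 826 CPM in the crosslinked inputs and 1708 CPM in the non-crosslinked input, were among the 10 that fell.

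**Figure D4:**
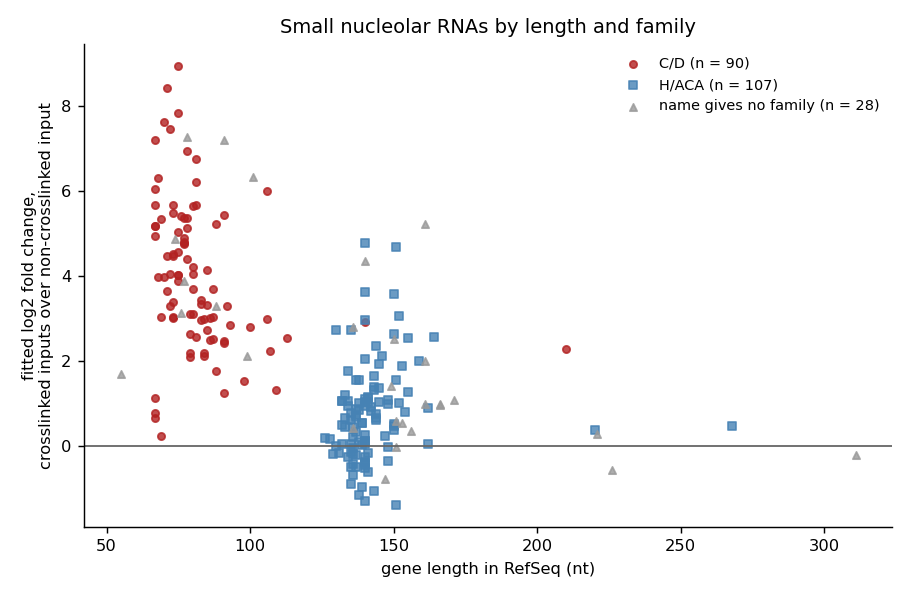
Fitted log2 fold change of each of the 225 tested snoRNAs, crosslinked inputs over non-crosslinked input, against gene length in RefSeq (nt), coloured by the family its name gives. C/D entries (median 3.94) lie above H/ACA entries (median 0.66) and are shorter.

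Of the 14 scaRNAs tested, 10 (71.4%) were higher and none lower, against 5.74% and 4.49% over all entries. In the non-crosslinked input 6 of the 14 had at most 3 reads, and 2 of these had none. The median log2 fold change was 3.48. With at least 10 reads required in every library, 5 of 8 were higher and the median was 1.05. PsiU2-55, named for a pseudouridine of U2, had 35.8 and 26.3 CPM in the crosslinked inputs and 0.960 CPM in the non-crosslinked input, and MeU2-C41 had 249 and 324 reads in the crosslinked inputs and 20 in the non-crosslinked input. The most abundant scaRNA, PsiU2-38.40.42, was not called, with 114 and 116 CPM in the crosslinked inputs and 144 CPM in the non-crosslinked input. PsiU6-40 had 132 and 102 CPM in the crosslinked inputs and 48.4 CPM in the non-crosslinked input, a fold of 2.42.

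The median intron entry and the median exon entry lay on opposite sides of 0. Features labelled mRNA, a separate class whose extent the label does not give, did not share the side of the exons. Their 1536 entries had a median log2 fold change of −0.12, or −0.33 with TMM factors, with 7 higher and 6 lower. Among 5442 genes tested by their exons, 292 (5.37%) were higher and 8 (0.147%) lower, with a median log2 fold change of 0.47. Over all entries 5.74% were higher and 4.49% lower. Rises by exons were thus no more frequent than over all entries, and falls by exons were rarer. The 1666 genes tested by their introns include noncoding hosts such as Uhg1 and Uhg5. Of these, 23 (1.38%) were higher and 350 (21.0%) lower, with a median of −0.81. In 1307 of the 1368 genes tested for both (95.5%), the log2 fold change of the introns was below that of the exons, with a median difference of −1.14. The median difference was −1.14 without crosslinked input 1 and −1.16 without crosslinked input 2. With the spread taken from the pull-down pair and without crosslinked input 2, 96 genes were higher by exons, and without crosslinked input 1, 89 genes were lower by introns. With TMM factors 484 genes were higher by exons and 859 lower by introns, with medians of 0.26 and −1.03.

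**Figure D5:**
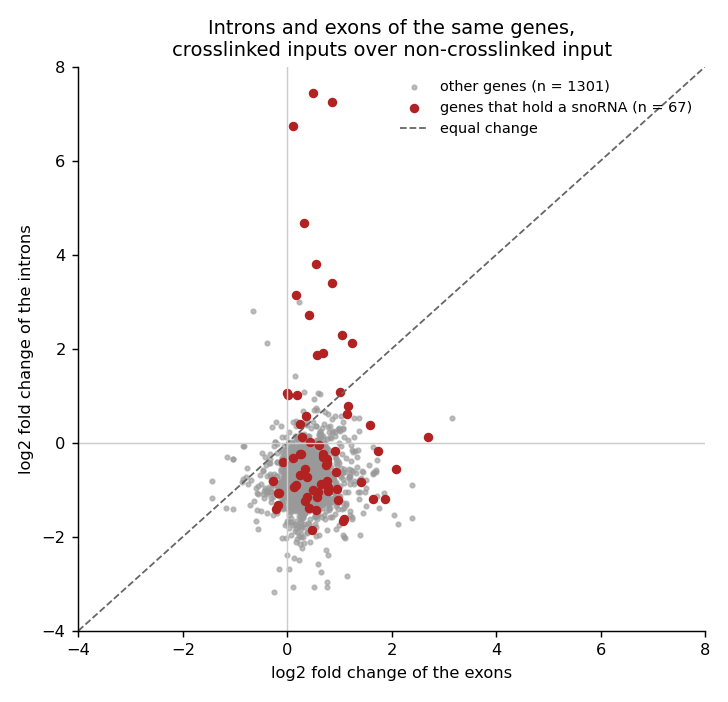
Log2 fold change of the introns against that of the exons of the same gene, crosslinked inputs over non-crosslinked input, for 1368 genes. Most points lie right of 0, below 0 and under the dashed line of equal change, and several genes that hold a snoRNA (red) lie far above it.

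Genes that hold a snoRNA were called in both directions by their introns. An entry sums all introns of a gene, so the intron around a snoRNA was not measured apart. Genes were matched to contained snoRNAs through RefSeq positions after the intron values had been seen, and on either strand. Of the 72 such genes tested by introns, 17 were higher and 26 lower, against 6 higher and 324 lower among the 1594 other genes. That is 23.6% higher and 36.1% lower, against 0.376% and 20.3% among the others. Summed, the introns of these 72 genes stood at 5955 and 5603 CPM in the crosslinked inputs and 10277 CPM in the non-crosslinked input, and those of the other genes at 9703 and 10857 CPM against 13260 CPM. For 53 of the 72 genes a tested snoRNA with a RefSeq position lay inside, and these were grouped by the family of the highest one. Where the highest contained snoRNA was of the C/D family, the introns of 9 of 14 genes were higher and those of 1 lower, with a median log2 fold change of 2.20. Where it was of the H/ACA family, the introns of 1 of 26 genes were higher and those of 14 lower, with a median of −0.78. Where its name gave no family, the introns of 3 of 13 genes were higher and those of 4 lower, with a median of −0.33. Introns of RpL7A, a ribosomal protein gene around the C/D snoRNA Or-CD10, had 66.3 and 70.9 CPM in the crosslinked inputs and 18.4 CPM in the non-crosslinked input. Introns of RpS7, a ribosomal protein gene around Psi18S-1377a, had 385 and 348 CPM in the crosslinked inputs and 1128 CPM in the non-crosslinked input (log2 −1.62, SE 0.17, adjusted p = 2.4e-19). Introns of dom, the gene of a chromatin remodeller, had 684 and 613 CPM in the crosslinked inputs and 1213 CPM in the non-crosslinked input, a call that was lost without crosslinked input 2 (log2 −0.83 against −0.90). Introns of Tudor-SN, a nuclease gene, had 38.4 and 36.1 CPM in the crosslinked inputs and 134 CPM in the non-crosslinked input. Whether reads of a snoRNA were also given to the intron around it was not tested.

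Among other introns, the largest falls that met the rule for naming genes were in entries of Y chromosome genes. OSS is an ovarian line, and whether the reads of these entries came from the Y chromosome was not tested. Introns of ORY had 34.9 and 33.3 estimated reads in the crosslinked inputs and 160 in the non-crosslinked input (log2 −2.29, SE 0.34, adjusted p = 2.6e-09). Those of Ppr-Y had 13.3 and 9.35 CPM in the crosslinked inputs and 45.6 CPM in the non-crosslinked input. Introns of Sema5c, with 23 and 25 reads in the crosslinked inputs and 83 in the non-crosslinked input, and of l(3)L1231, with 31 and 40 against 122, fell by a like amount. The intron entry with the highest level, CG34355, went up, with 2245 and 2345 CPM in the crosslinked inputs and 784 CPM in the non-crosslinked input. Its fold was 2.93, and its adjusted p was 0.052 with TMM factors. Intronic reads of the lncRNA bxd stood at 391.8 and 388.9 CPM in the crosslinked inputs and 198 CPM in the non-crosslinked input (adjusted p = 7.4e-05, or 0.083 with TMM factors, and not called without crosslinked input 1 at a log2 fold change of 0.97), and those of flam, the main piRNA cluster of ovarian somatic cells, at 232 and 269 CPM against 297 CPM, which was not called.

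For exons, most of the highest genes did not pass the test. Msp300, a nuclear membrane protein of muscle and other cells, had 1565 and 1496 CPM in the crosslinked inputs and 1181 CPM in the non-crosslinked input (log2 0.37, SE 0.15, adjusted p = 0.10). HERC2, an E3 ubiquitin ligase gene, had 575 and 555 CPM in the crosslinked inputs and 499 CPM in the non-crosslinked input. Arc1, a gene of capsid-forming proteins, was 1 of the 8 that were lower, at 361 and 313 CPM in the crosslinked inputs and 501 CPM in the non-crosslinked input, and was not called with TMM factors (adjusted p = 0.088) or without crosslinked input 1 or 2 (log2 −0.68 and −0.47). Chosen after the values were seen, the exon entry with the highest level among those called higher was the actin gene Act5C, with 2678 and 3665 estimated reads in the crosslinked inputs and 1619 in the non-crosslinked input (log2 0.90). Cp1, a cathepsin gene, had 465 and 762 reads in the crosslinked inputs against 185 in the non-crosslinked input, and SPARC, a protein of the extracellular matrix, 248 and 353 against 67.

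Gene lists are described by their counts and medians, beside 5.74% higher and 4.49% lower over all entries and the overall median of 0.23. Protein-coding genes entered the lists by exon and mRNA entries, and the medians of these classes were 0.47 and −0.12. Of 155 entries of cytoplasmic ribosomal protein genes, 15 were higher and 1 lower, and the median log2 fold change was 0.36. RpL4 exons, for example, had 39.1 and 37.0 CPM in the crosslinked inputs and 22.6 CPM in the non-crosslinked input, and RpS6 exons 20.7 and 23.4 CPM against 22.6 CPM. Of 24 entries of translation factors, 1 was higher and 1 lower, and the median was 0.21. Exons of eEF1alpha1, which brings tRNAs to the ribosome, had 359 and 392 CPM in the crosslinked inputs and 378 CPM in the non-crosslinked input. Replication-dependent histones had 3 of 5 types higher and none lower, a median of 0.91 and a summed level of 93.8 and 112 CPM in the crosslinked inputs and 52 CPM in the non-crosslinked input. Histone H3 (His3) led, at 19.4 and 23.4 CPM in the crosslinked inputs and 5.76 CPM in the non-crosslinked input (log2 1.89, SE 0.35). Of 5 entries of the snoRNA host genes named Uhg, introns included, 4 were higher and 1 lower, and the median was 2.57. Uhg2 had 30.3 and 35.1 CPM in the crosslinked inputs and 8.40 CPM in the non-crosslinked input, whereas Uhg4 had 100 and 84.9 CPM against 171 CPM and lost its call without crosslinked input 2 (log2 −0.77).

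Of genes known to respond to DNA damage or stress, 1 entry was called higher and 1 lower. None of 26 entries of heat shock proteins was higher and 1 was lower, and the median log2 fold change was 0.28. None of 11 entries of immediate early and stress kinase target genes was called in either direction, with a median of 0.26. The chaperone gene Hsc70-4 had 223 and 240 CPM in the crosslinked inputs and 193 CPM in the non-crosslinked input. puc, a target of JNK signalling, had 9.36 and 13.0 CPM in the crosslinked inputs and 8.32 CPM in the non-crosslinked input. Hsromega, a nuclear RNA induced by heat, had 9.89 and 13.8 CPM in the crosslinked inputs and 20.8 CPM in the non-crosslinked input, with an adjusted p of 0.062. Of 20 entries of DNA damage genes 1 was higher and none lower. Their median log2 fold change was 0.59, beside the overall median of 0.23 and a median of 0.47 over exon entries. Of the 20, 14 had both crosslinked inputs above the non-crosslinked input. The same held for 4878 of 9471 entries of any class and for 3939 of 5442 exon entries. Xrp1, a transcription factor gene induced by DNA damage, had 37.1 and 46.3 CPM in the crosslinked inputs and 36.4 CPM in the non-crosslinked input. Of 23 entries of RNA-binding and splicing proteins 2 were higher and none lower, with a median of 0.36, and exons of the helicase gene Rm62 had 53.1 and 59.2 CPM in the crosslinked inputs and 37.4 CPM in the non-crosslinked input. Where an entry was not called, a change smaller than its standard error allows may have gone undetected at this depth, and a missed threshold does not show that the level was the same.

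Of 23 entries of the somatic piRNA pathway, in which Asterix acts, none was higher and 1 (4.35%) was lower. The shares over all entries were 5.74% higher and 4.49% lower. The median log2 fold change of the list was 0.47, and that of all exon entries was also 0.47. This list shares the gene Hsp83 with the heat shock list, and the lowest log2 fold change was −1.05 in both lists. The lower entry of the 2 lists may therefore be the same one. Exons of Hsp83 were not called (log2 0.29). Exons of piwi, which carries piRNAs into the nucleus, had 28.5 and 35.4 CPM in the crosslinked inputs and 24.2 CPM in the non-crosslinked input (log2 0.40, SE 0.29). armi, an RNA helicase gene of the pathway, had 15.6 and 20.3 CPM in the crosslinked inputs against 12.5 CPM in the non-crosslinked input. The gene of Asterix itself, arx, had 1 and 2 reads in exons in the crosslinked inputs and 0.500 in the non-crosslinked input. These values are at or under the limit of 3 reads in every library. Whether RNA of the transfected plasmid, which encodes tagged Asterix, was counted among them was not tested.

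Calls among transposon families were counted by type. Of 94 LTR families, 6 (6.38%) were higher and 5 (5.32%) lower, against 5.74% and 4.49% over all entries. ZAM, which is silenced by piRNAs of flam, had 3007 and 4218 CPM over its internal part in the crosslinked inputs and 3988 CPM in the non-crosslinked input. Copia, another LTR element, had 3433 and 3898 CPM in the crosslinked inputs and 2756 CPM in the non-crosslinked input, a fold of 1.33 that was not called without ribosomal reads (adjusted p = 0.16) or with TMM factors (0.86). None of 33 LINE families was higher and 2 (6.06%) were lower. HETA, an element that extends fly telomeres, had 120 and 131 CPM in the crosslinked inputs and 115 CPM in the non-crosslinked input. Among 16 DNA elements none was higher and 3 (18.8%) were lower, among them the foldback element FB4_DM at 98.1 and 137 CPM in the crosslinked inputs and 222 CPM in the non-crosslinked input (log2 −0.92, SE 0.21). Without crosslinked input 1 the call for FB4_DM was lost (log2 −0.70), and that for Copia was lost without crosslinked input 1 or 2 (log2 0.50 and 0.32). Of 190 piRNA cluster entries 6 (3.16%) were higher and 11 (5.79%) lower, against 5.74% and 4.49% over all entries.

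The labelled cell type was checked against its markers. The ovarian somatic gene tj, a transcription factor that defines these cells, had 138 and 154 CPM in the crosslinked inputs and 120 CPM in the non-crosslinked input. Of 11 entries of ovarian somatic markers 1 was higher and none lower. Markers of germline cells summed to 6.96 and 9.07 CPM in the crosslinked inputs and 7.39 CPM in the non-crosslinked input, with 2 of 11 genes at 0 in all inputs. Muscle markers summed to 4.90 and 5.13 CPM in the crosslinked inputs and 3.71 CPM in the non-crosslinked input, and neuron markers to 2.70 and 2.97 CPM against 2.66 CPM. Hemocyte markers summed to 23.4 and 27.9 CPM in the crosslinked inputs and 21.5 CPM in the non-crosslinked input, nearly all from srp, with 21.2 and 25.2 exonic CPM in the crosslinked inputs and 18.1 CPM in the non-crosslinked input.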

How the data were processed

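Each library came with a table of values for 123041 annotated features in 28 classes. Its values are estimated counts as the authors made them, with reads that match several features of a class split between those features, and RPM values that the authors scaled to all reads. A ratio table that the authors deposited was not used. Reads outside any annotation were left out. The submitters' processing notes name bcl2fastq 2.19, STAR 2.5.2b and bedtools 2.29.0, and the genome builds mm10 and dm6 with no role for either. Whether strand was used, and whether duplicates were removed, is not given in the sources used here, so antisense and overlapping features are uncertain.

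Features were summed into 30213 entries by gene, transposon family or tRNA anticodon, and near-identical copies of rRNA, snRNA, U3, 7SL and replication-dependent histone genes by type, because divided reads cannot be told apart between copies. Estimated counts were rounded and tested with edgeR 4.0.16 in R 4.3.3 (filterByExpr, quasi-likelihood F test, two-sided, Benjamini-Hochberg adjustment over all entries tested, threshold 0.05), the 2 crosslinked inputs against the 1 non-crosslinked input. The library size was the annotated reads. The spread rests on 1 residual degree of freedom, and edgeR replaced each entry's own spread by the shared trend, so adjusted p-values, above all of abundant RNAs, are likely to be too small. The fit was tested on simulated counts. A ratio against 0 reads is a lower bound at 3 reads, and one against 1 to 3 reads is given with an exact 95% interval.

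Named entries are the 10 largest rises and falls past the threshold with at least 100 reads and both crosslinked inputs at least 2-fold on 1 side, the 3 highest of each class (all in classes of fewer than 5), arx, up to 4 of each gene list, and others that the text says were picked after their values were seen or that illustrate a class count. Libraries, lists and entries were chosen with earlier results of these data known. Gene lengths and the genes around snoRNAs came from a RefSeq table of Release 6 plus ISO1 MT. Alternatives were totals without ribosomal RNA, TMM factors, DESeq2 1.42.0 size factors and its Wald test, other count filters and thresholds, all 6 libraries in 1 fit, limma 3.58.1 on the deposited RPM with a pseudocount of 1, and each crosslinked input left out, with the spread then taken from the pull-down pair in a fit of 5 libraries. Python 3.11.15 with pandas 2.3.3 was used for the rest.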

Additional observations from a re-analysis of the deposited data

Results flagged for a closer look

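For 7 classes both crosslinked libraries lay on one side of the non-crosslinked library in the inputs and on the other side in the pull-downs. The log2 ratio of the crosslinked mean share over the non-crosslinked share was 0.35 in the inputs and −0.47 in the pull-downs for exons. It was 0.88 and −0.37 for snRNA, 0.61 and −0.42 for scaRNA, and 0.13 and −0.996 for introns of lncRNA genes. For antisense RNA it was 0.035 and −0.66, and for rRNA −0.021 and 0.19. For a small class of other introns, with 28 features, it was −0.53 and 1.16. Of the 2 entries tested in this small class, 1 was higher and 1 lower in the crosslinked inputs. The main intron class kept its side, at −0.55 in the inputs and −0.58 in the pull-downs. Antisense RNA had 632 and 723 reads in the crosslinked inputs and 634 in the non-crosslinked input. With ribosomal reads left out of the total, the opposite sides remained for exons, scaRNA (0.48 in the inputs and −0.069 in the pull-downs) and the small class of other introns. They did not for snRNA, where the non-crosslinked pull-down (11.3%) lay between the crosslinked ones (10.7% and 11.6%), for introns of lncRNA genes, where the non-crosslinked input lay between the crosslinked inputs, or for antisense RNA (−0.10 and −0.31). The difference between inputs and pull-downs was not tested, and each ratio rests on 1 non-crosslinked library.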

How the results depend on the processing

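No paired analysis was possible because the non-crosslinked input is a single library without a replicate number. The count of 1979 features called became 1141 with at least 10 reads in every library, 975 without a filter, 418 in DESeq2's Wald test and 1019 at an adjusted p of 0.01. For entries the count of 969 became 1899 with TMM factors, 1908 with DESeq2 size factors, 430 in DESeq2's Wald test and 573 at 0.01, and 610 to 673 when 1 crosslinked input was left out. Of the 969 entries, 933 kept their call and direction with TMM factors, 417 in DESeq2's Wald test, 552 without crosslinked input 1 and 627 without crosslinked input 2, and none was called in the opposite direction under these settings. Without ribosomal reads in the total, log2 ratios of class shares became −1.63 for tRNA, −1.02 for structRNA, 0.75 for snRNA, 0.31 for snoRNA, 0.48 for scaRNA, 3.02 for mitochondrial tRNA, −0.69 for introns, −0.15 for LINE elements, −0.17 for piRNA clusters and −0.094 for lncRNA, and that of introns of lncRNA genes turned to −0.0082. With unannotated reads in the total, that of rRNA was −0.0059. The median log2 fold change of neuron markers turned to −0.044 with TMM factors. Of the named entries 15 lost their call with TMM factors, 20 without crosslinked input 1, 16 without crosslinked input 2, 6 in the fit of all 6 libraries and 3 without ribosomal reads, and none was called in the opposite direction. Fits without a crosslinked input took their spread from the crosslinked pull-down pair, with 1 residual degree of freedom. The cause of these changes was not tested.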
